A study of Rattus norvegicus with 9 samples.

Results

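The 6 libraries of rats in the Sugen-hypoxia model were taken as 1 group and compared with the 3 libraries of normoxic rats, all from peripheral blood mononuclear cells. This comparison uses 9 of the 9 libraries of the series and the raw exon reads of 22077 intact gene lines. All rats were wild-type Sprague-Dawley. The control libraries were labelled normoxia at day 0, and the Sugen-hypoxia libraries were labelled day 28 (3 libraries) and day 56 (3 libraries). Every control is from day 0, so treatment, day and age cannot be told apart, and the labels give no age or sex. The labels also do not say that replicates came from separate animals, so the p-values below reflect only how these samples spread, and that spread may be technical. Taking both days as 1 group asks which transcripts stood apart from normoxia at day 28 and day 56 alike, since any difference between the days counts as spread within the group.

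Sugen-hypoxia combines the VEGF receptor inhibitor SU5416 (Sugen) with a period of low oxygen, and gives rats a severe pulmonary hypertension with occluded small lung arteries. The title of the series concerns the aryl hydrocarbon receptor (AHR). AHR is a transcription factor that lies in the cytoplasm until it binds a ligand. It then pairs with ARNT in the nucleus and binds xenobiotic response elements, whose core reads GCGTG. Its targets include Ahrr, which encodes a repressor that competes with AHR for ARNT, so Ahrr transcript is often used as a readout of AHR activity in cells. Immediate-early genes, such as the AP-1 subunits of the Fos and Jun families, the Egr and Nr4a factors and the Dusp phosphatases, are a second group that recurs below. They are transcribed within minutes of a stimulus without new protein synthesis.

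Libraries held 22148400 to 39947430 exon reads, and 3 reads corresponded to 0.0762 to 0.195 CPM (CPM, exon reads of a gene scaled by library size and TMM factors). The libraries differed in red cell RNA. The globin share was computed as the share of exon reads in the few genes with the most reads over all libraries. It was 43.0%, 49.3% and 56.3% in normoxia, 1.42%, 4.83% and 29.0% at day 28, and 40.5%, 43.3% and 44.4% at day 56. The pooled means were 27.2% ± 19.5 (SD, n = 6) in Sugen-hypoxia and 49.5% ± 6.65 (SD, n = 3) in normoxia, a difference that an exact permutation test (two-sided, 84 assignments, smallest possible p 0.0238) gave p = 0.0714. Intron reads made up 17.2% ± 4.98 (SD, n = 6) of reads in genes in Sugen-hypoxia and 8.86% ± 5.02 (SD, n = 3) in normoxia (exact permutation test, two-sided p = 0.0952). Normoxia replicate 1, with 14.6% intron reads, lay among the Sugen-hypoxia libraries, whereas normoxia replicates 2 and 3 had 6.60% and 5.37%. The first principal component of all genes (40.6% of variance) likewise set normoxia replicates 2 and 3 apart from the other 7 libraries, normoxia replicate 1 included.

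**Figure D1:**
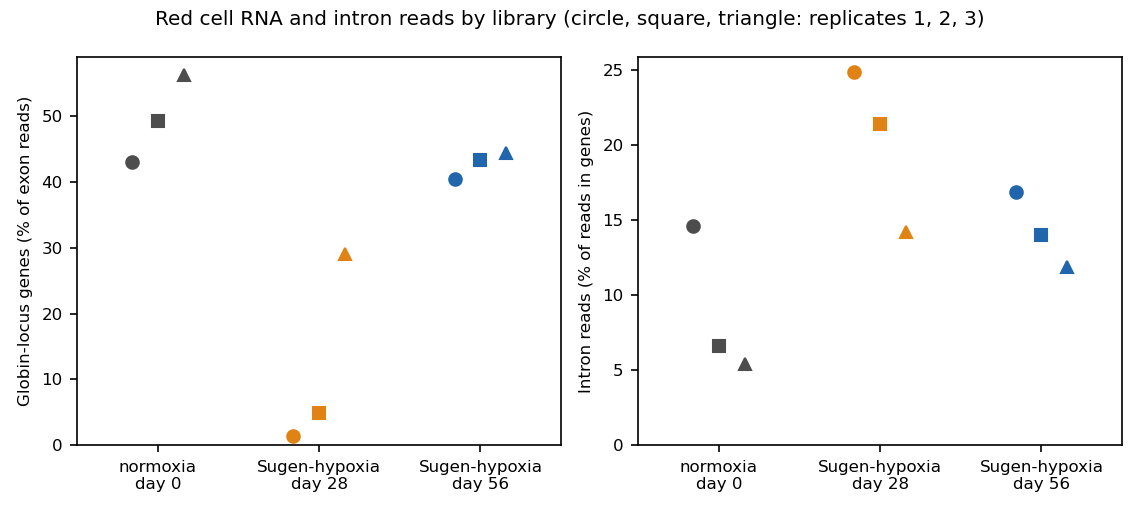
Globin share, computed from the few genes with the most exon reads (left, percent), and share of intron reads among reads in genes (right, percent), 1 point per library, by group. Day 28 replicates 1 and 2 lie near 0 for globin reads (1.42% and 4.83%), and normoxia replicate 1 (14.6%) lies with the Sugen-hypoxia libraries for intron reads.

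With both days as 1 group, 11 of the 12447 genes that passed the expression filter differed from normoxia, which is 0.0884% of genes tested (edgeR's quasi-likelihood test, Benjamini-Hochberg adjusted p under 0.05). Of these, 9 rose and 2 fell. The genes that rose were Ahrr, Erp27, Fam111a, Klf6, Gpr15, Tob1, Rhob, Jun and Dpysl5, and those that fell were Calhm6 and Calhm5. All 6 Sugen-hypoxia values of each of the 11 genes lay outside the 3 normoxia values, which held for 670 genes upward (5.38% of those tested) and 659 downward (5.29%) in all. At an unadjusted p under 0.05 the count was 3785 (1591 higher, 2194 lower), and 677 genes had an adjusted p between 0.05 and 0.07, just outside the threshold.

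**Figure D2:**
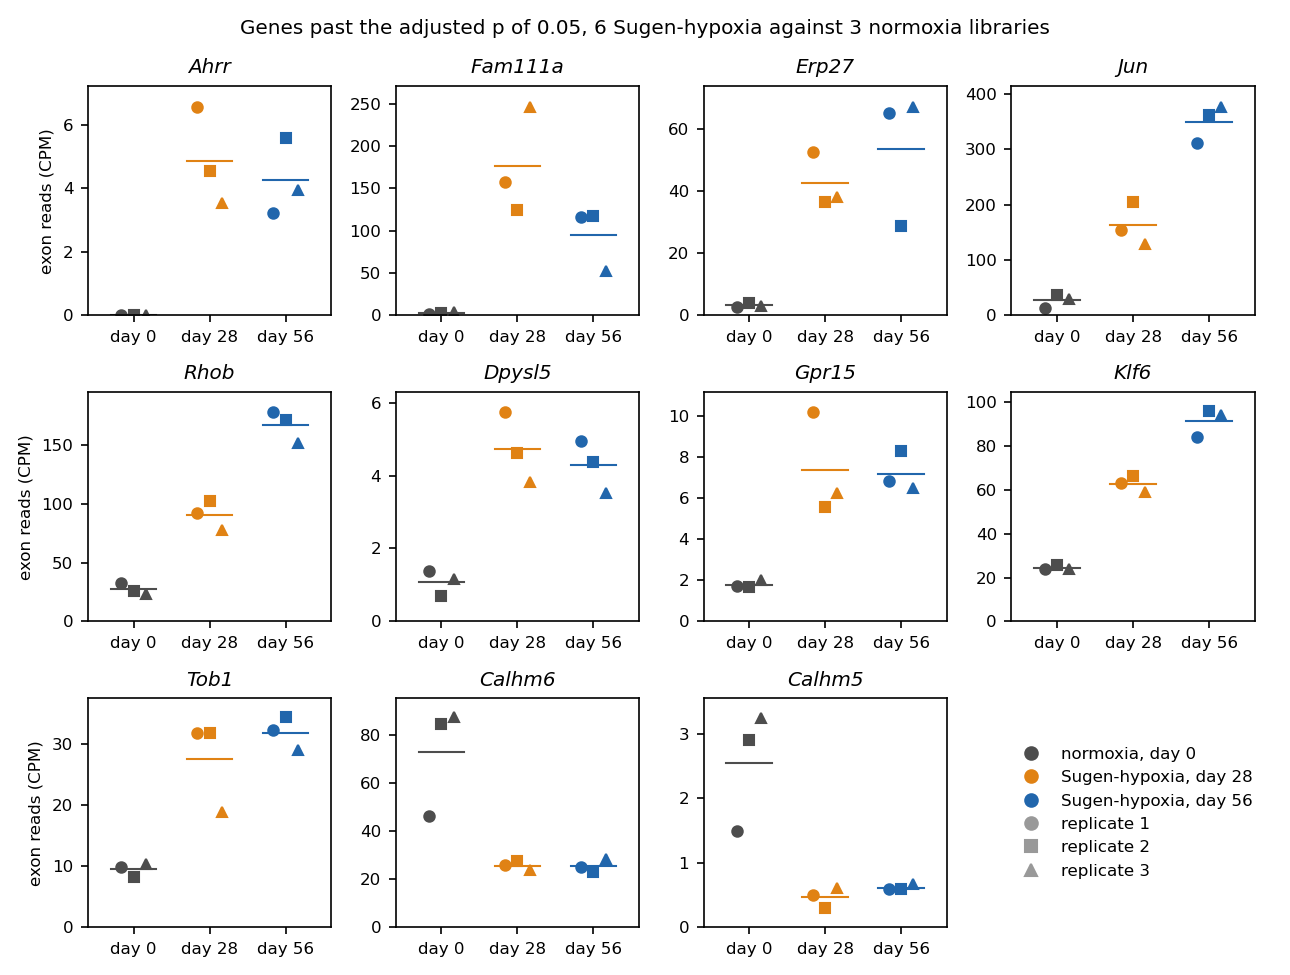
Exon reads (CPM, linear axes from 0) of the 11 genes past the adjusted p of 0.05, 1 point per library with symbols for replicates 1, 2 and 3, and a line at each group's mean. In every panel the 6 Sugen-hypoxia points lie on 1 side of the 3 normoxia points, and Ahrr is at 0 in normoxia.

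Ahrr, the AHR repressor, was at 0 reads in all normoxia libraries and present in all 6 Sugen-hypoxia libraries. It had 0, 0 and 0 reads in normoxia, 246, 179 and 110 at day 28, and 86, 133 and 118 at day 56. That corresponds to 6.54, 4.54 and 3.52 CPM at day 28 and 3.21, 5.59 and 3.95 CPM at day 56. The groups did not overlap, while the values of the 2 days did. The pooled mean was 4.56 ± 1.29 CPM (SD, n = 6). A count of 0 in normoxia allows up to 0.0450 CPM (3 reads over the group), so Ahrr was at least 101-fold higher in Sugen-hypoxia (edgeR's quasi-likelihood test, adjusted p = 0.00266). Its call held in 24 of 24 alternatives, with a highest adjusted p of 0.0364. Ahrr is ENSRNOG00000014721, on chromosome 1 from 31603296 to 31698329 in rn6.

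The 250 bases before the start of Ahrr hold 3 copies of the AHR core motif GCGTG. Of the genes tested, 9154 have a promoter in the RefSeq table (assembly GRCr8), and 44.7% of those promoters hold at least 1 GCGTG on either strand, while 5.1% hold 3 or more. The promoters of Ahrr, Nqo1 and Tiparp are shown because these AHR targets carry the motif; capitals mark GCGTG, or CACGC where it lies on the other strand. In Ahrr the copies lie on the gene's strand at 142 to 138, 117 to 113 and 57 to 53 bases before the start. Nqo1 and Tiparp each hold 1 copy on the other strand, and the window of Ahr holds no match.
Ahrr, chr1:30821969-30822218, plus strand: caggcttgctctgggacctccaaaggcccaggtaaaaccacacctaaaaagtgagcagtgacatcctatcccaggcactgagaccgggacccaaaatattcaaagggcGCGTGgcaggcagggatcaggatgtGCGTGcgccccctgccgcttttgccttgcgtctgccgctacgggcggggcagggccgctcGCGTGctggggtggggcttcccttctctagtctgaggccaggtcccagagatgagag
Nqo1, chr19:52220268-52220517, minus strand: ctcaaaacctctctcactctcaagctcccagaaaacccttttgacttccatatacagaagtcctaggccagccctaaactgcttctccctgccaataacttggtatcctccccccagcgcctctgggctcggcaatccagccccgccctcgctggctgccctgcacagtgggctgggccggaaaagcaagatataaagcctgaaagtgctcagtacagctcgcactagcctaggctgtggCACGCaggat
Tiparp, chr2:152063519-152063768, plus strand: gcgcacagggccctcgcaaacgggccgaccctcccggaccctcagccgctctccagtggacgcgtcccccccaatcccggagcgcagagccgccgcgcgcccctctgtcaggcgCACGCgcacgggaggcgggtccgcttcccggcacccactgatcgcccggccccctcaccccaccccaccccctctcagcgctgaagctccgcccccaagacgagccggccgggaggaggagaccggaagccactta
A match is a description of the letters, and binding was not measured in these samples.

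The other measured AHR genes differed less than Ahrr. Of 18 genes listed for the pathway, 17 were measured and 10 passed the expression filter, and Ahrr alone was called in the pooled fit. The median log2 fold change of the 10 was 0.57, against -0.01 over all genes tested. Nqo1, a quinone reductase induced through AHR and through NRF2, was at 3.29, 3.75 and 6.10 CPM in normoxia, 20, 28.8 and 12.3 CPM at day 28 and 12.3, 16.8 and 11.6 CPM at day 56. All 6 values lay above normoxia, yet Nqo1 missed the threshold in the pooled fit (log2 fold change 1.96, SE 0.36, adjusted p = 0.0638) and passed in 8 of 24 alternatives. One of them fits a mean for each day and is used for the genes further below (1.94, edgeR's quasi-likelihood test, adjusted p = 0.0248). There Nqo1 passed in 4 of 9 fits without 1 library. Ahr itself was at 9.91, 11 and 10.1 CPM in normoxia and 12.3 to 17.5 CPM (median 15) in Sugen-hypoxia, again without overlap. Its log2 fold change of 0.53 (SE 0.15) did not pass (adjusted p = 0.0704), with 4 of 24 alternatives below the threshold. Arnt, the partner of AHR, differed by 0.29 (SE 0.16, adjusted p = 0.234), and its groups overlapped. Tiparp, an AHR-induced enzyme that ADP-ribosylates the receptor, differed by 0.60 (SE 0.24, adjusted p = 0.131) and passed in 0 of 24 alternatives. The classical targets Cyp1a1 and Cyp1b1 did not reach the filter: Cyp1a1 had at most 0.0833 CPM in normoxia and at most 0.319 CPM in Sugen-hypoxia, and Cyp1b1 at most 0.0368 and 0.261 CPM.

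Erp27 and Fam111a rose from low levels in normoxia. Erp27, a non-catalytic member of the protein disulfide isomerase family in the endoplasmic reticulum, was at 2.75, 4.01 and 3.18 CPM in normoxia. It was at 52.6, 36.6 and 38.2 CPM at day 28 and 65.3, 28.7 and 67.1 CPM at day 56. Its lowest Sugen-hypoxia value, day 56 replicate 2, was still far above normoxia, and the ratio of means was 14.5 (log2 fold change 3.85, SE 0.35, adjusted p = 0.00266). The call of Erp27 held in 24 of 24 alternatives, with a highest adjusted p of 0.0460 without normoxia replicate 3. Fam111a encodes a protease tied to DNA replication and to restriction of viruses. It was at 1.42, 3.31 and 4.48 CPM in normoxia, 158, 125 and 246 CPM at day 28 and 116, 117 and 52.6 CPM at day 56, which made the ratio of means 44.2 (log2 fold change 5.48, SE 0.59, adjusted p = 0.00998). The values of Fam111a spread over a wider range within Sugen-hypoxia than those of Erp27, and none came near normoxia. Fam111a lost its call without normoxia replicate 2 (adjusted p = 0.113), without normoxia replicate 3 (0.0643) and with a replicate block (0.0728). Leaving out any 1 library gave log2 fold changes of 5.16 to 5.84.

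Jun, Klf6, Rhob and Tob1, which are induced early after stimulation, rose in all 6 libraries. Jun, the AP-1 subunit, went from 13.8, 37.4 and 29.7 CPM in normoxia to 154, 205 and 128 CPM at day 28 and 311, 362 and 376 CPM at day 56. The 3 groups of Jun did not overlap, and the log2 fold change was 3.25 (SE 0.48, adjusted p = 0.0494). Klf6, a zinc-finger factor, was at 23.7, 25.5 and 23.7 CPM in normoxia, 63.1, 66.3 and 59.0 CPM at day 28 and 84, 96.0 and 94.2 CPM at day 56 (log2 fold change 1.66, SE 0.20, adjusted p = 0.0184). Rhob, a small GTPase of endosomes, was at 32.8, 25.6 and 23.7 CPM in normoxia, 91.8, 102 and 78.0 CPM at day 28 and 178, 171 and 152 CPM at day 56 (log2 fold change 2.23, SE 0.31, adjusted p = 0.0377). For Jun, Klf6 and Rhob the 3 values of day 56 all lay above those of day 28, but the difference between the days did not pass for any of them (adjusted p = 0.127, 0.0949 and 0.0658). Tob1, an antiproliferative protein that recruits the deadenylase to transcripts, was at 9.95, 8.21 and 10.4 CPM in normoxia, 31.8, 31.9 and 18.9 CPM at day 28 and 32.3, 34.5 and 29.0 CPM at day 56 (log2 fold change 1.64, SE 0.21, adjusted p = 0.0191). Day 28 replicate 3 was the lowest of the 6 for all 4 genes.

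Gpr15 rose and Calhm6 fell. Gpr15, a receptor that guides T cells to the large intestine, was at 1.71, 1.66 and 2.01 CPM in normoxia, 10.2, 5.58 and 6.27 CPM at day 28 and 6.83, 8.28 and 6.47 CPM at day 56 (log2 fold change 2.02, SE 0.25, adjusted p = 0.0184). Calhm6, an interferon-inducible channel of immune cells, was at 46.5, 84.8 and 87.7 CPM in normoxia. Its 6 Sugen-hypoxia values lay in a narrow band of 22.9 to 28.4 CPM (median 25.5), and the log2 fold change was -1.51 (SE 0.19, adjusted p = 0.0184). For both Gpr15 and Calhm6 the values of the 2 days overlapped. Calhm5 lies beside Calhm6 on chromosome 20 (27651311 to 27657983 and 27681035 to 27682861 in rn6) and fell from 1.5, 2.91 and 3.24 CPM to 0.305 to 0.670 CPM (log2 fold change -2.22, SE 0.33, adjusted p = 0.0494). Only 8.30% of the reads of Calhm5 and 11.7% of those of Dpysl5 mapped uniquely, so the reads of both genes could come from other loci. With uniquely mapped reads alone, Dpysl5 did not pass (adjusted p = 0.0623) and Calhm5 was not tested. Dpysl5, a collapsin response mediator, had 0.699 to 1.37 CPM in normoxia and 3.52 to 5.74 CPM in Sugen-hypoxia (log2 fold change 2.06, SE 0.29, adjusted p = 0.0377). Calhm5 and Dpysl5 fall outside the rule for named genes and were chosen after their values were seen. None of the 11 genes differed between the days (adjusted p of 0.0658 for Rhob and above for the others).

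The number of called genes depended more on single normoxia libraries than on any scaling. Without normoxia replicate 1, 4818 genes passed, and without normoxia replicate 2 or 3, 2 did, namely Ahrr and Erp27. Leaving out day 28 replicate 1, 2 or 3 gave 5, 22 or 209 genes, and leaving out any 1 day 56 library gave 4. The calls of Rhob, Tob1, Calhm6, Jun, Dpysl5 and Calhm5 were each lost when normoxia replicate 2 or 3, the first day 28 replicate or any day 56 library was left out, with adjusted p of 0.0551 to 0.257. Klf6 lost its call without normoxia replicate 2 (0.120) or 3 (0.102), and in the absence of day 56 replicate 1 (0.0575). Gpr15 lost it without normoxia replicate 2 (0.138) or 3 (0.0960) or any day 56 library (0.0539 to 0.0730). No log2 fold change of the 11 genes changed sign in any alternative. Without normoxia replicate 1 and day 28 replicate 3 together, an alternative added after the data were seen, 4888 genes passed, all 11 among them.

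**Figure D3:**
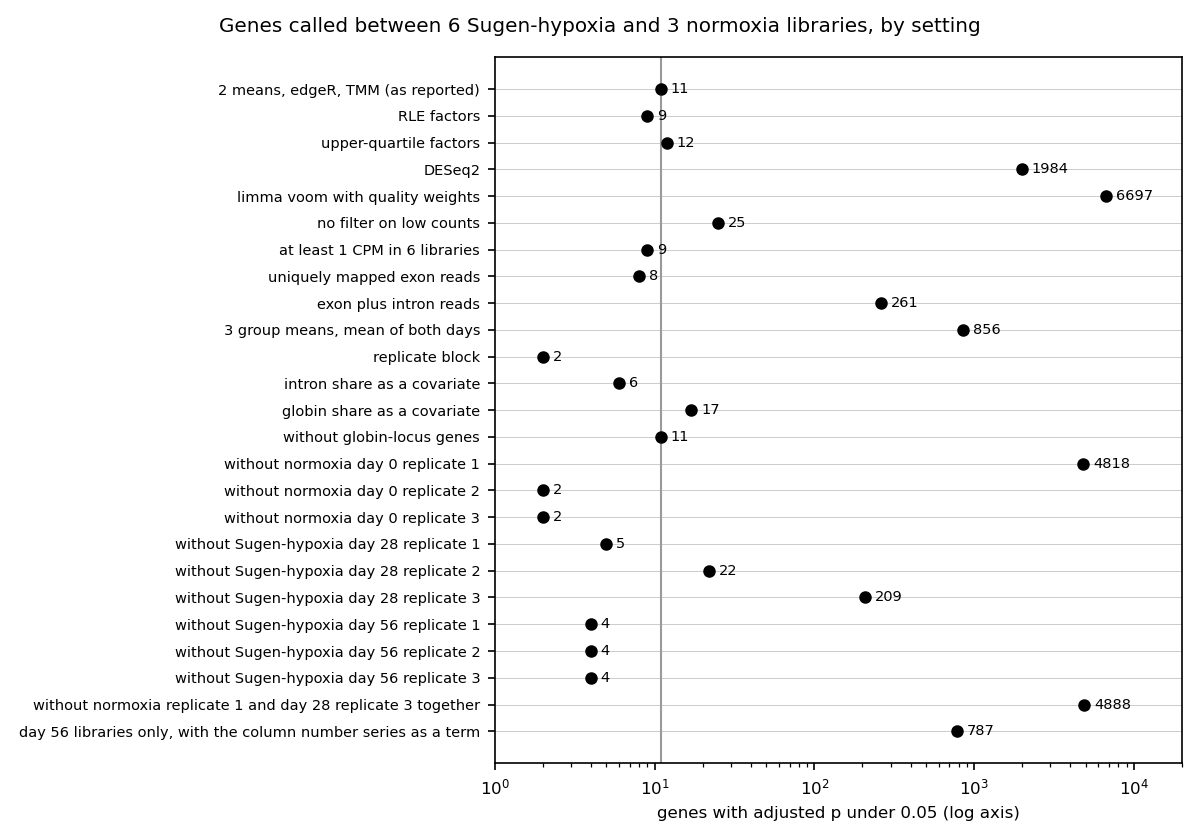
Number of genes with an adjusted p under 0.05 between the 6 Sugen-hypoxia and 3 normoxia libraries (log axis) under each setting, with a line at the 11 of the comparison as reported. Counts run from 2 to 6697, and TMM, RLE and upper-quartile factors give 11, 9 and 12.

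The column headers number the libraries in 3 runs: 046 to 047 for normoxia replicate 1 and day 56 replicate 1, 061 to 064 for the other normoxia and day 56 libraries, and 068 to 070 for day 28. They do not call these batches. The day 28 libraries have a run of numbers of their own, so that run and day 28 cannot be told apart. Day 56 and normoxia occur in both of the other runs. With the run as a term and day 56 alone against normoxia, 787 genes passed, all 11 among them, with log2 fold changes of 4.02 for Erp27, 5.05 for Fam111a and 3.82 for Jun.

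Fitting a mean for each day and testing the mean of both days against normoxia takes the difference between the days out of the error. The common coefficient of biological variation was then 0.28 in place of 0.324, and 856 genes passed: 316 higher (2.54% of genes tested) and 540 lower (4.34%), the 11 genes above among them. Of the 316, 249 had all 6 Sugen-hypoxia values above normoxia, and of the 540, 291 had all 6 below. Those 856 calls moved with the libraries too, from 17 without normoxia replicate 2 and 36 without normoxia replicate 3 to 6156 without normoxia replicate 1. When each library's intron share or globin share entered the fit, 12 passed in each case. The genes named and counted from here on as higher or lower passed with the mean of both days. Those named here for the first time did not pass in the fit with 1 pooled mean, while the counts for lists include Jun, Rhob and Klf6, which did. They were named by a rule set after the values were seen, or beside that rule. The log2 fold changes and adjusted p of single genes are those of the mean of both days (edgeR's quasi-likelihood test), and the medians of lists are those of the fit with 1 pooled mean.

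**Figure D4:**
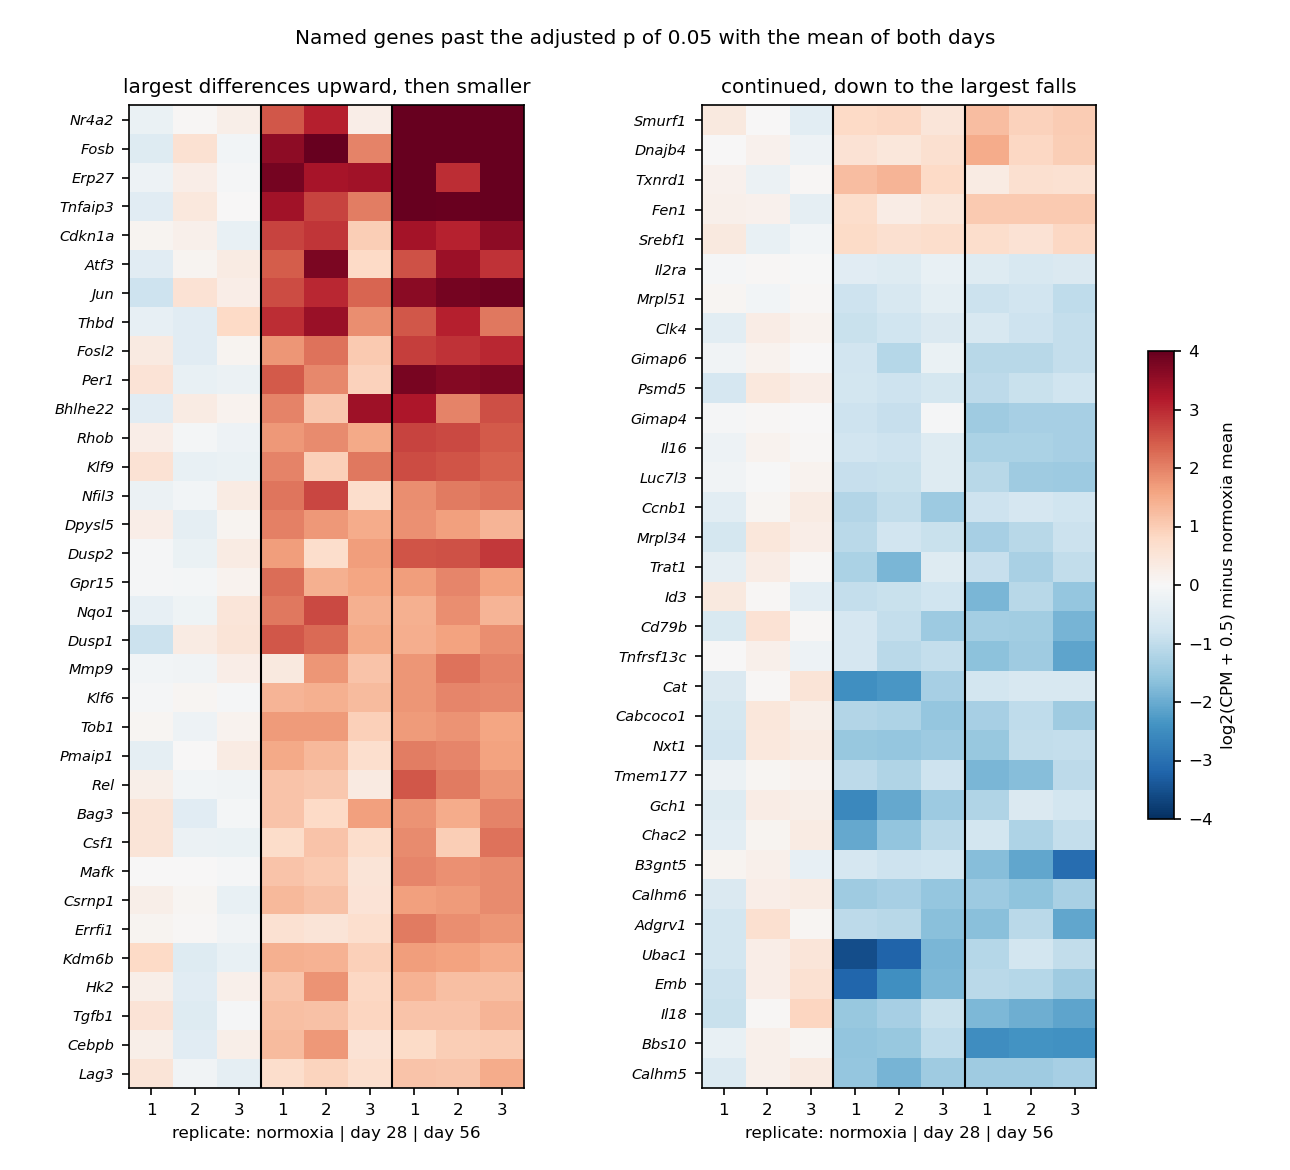
log2(CPM + 0.5) of 67 named genes relative to the mean of the 3 normoxia libraries (colour, limited to -4 and 4), with 1 column per library and genes ordered by the log2 fold change of the mean of both days. Ahrr and Fam111a are left out. Values beyond the scale, such as those of Fosb at day 56, are drawn in the colour of its limit. Day 28 replicate 3 is paler than the other Sugen-hypoxia libraries for Nr4a2, Atf3 and Gimap4.

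AP-1 genes, dual-specificity phosphatases and other immediate-early genes were the 3 lists with the highest medians. Of 16 AP-1 and ATF genes tested, 9 were higher with the mean of both days and 0 lower, the median log2 fold change was 1.46, and 8 had all 6 values above normoxia. Over all genes tested, 2.54% were higher, 4.34% were lower and 5.38% had all 6 values above normoxia. Fosb was at 1.67, 4.27 and 2.40 CPM in normoxia, 36.8, 57.0 and 11.9 CPM at day 28 and 96.6, 90.5 and 73.3 CPM at day 56 (log2 fold change 4.30, adjusted p = 0.00992). Fos was at 11.5, 36.5 and 57.6 CPM in normoxia and 94.2 to 426 CPM in Sugen-hypoxia (median 215; 2.70, adjusted p = 0.0376). Atf3, a stress-induced repressor, was at 0.958, 1.66 and 2.01 CPM in normoxia, and day 28 replicate 3 (2.97 CPM) was close to these, while the other 5 libraries had 10.2 to 26.7 CPM. Fosl2 and Mafk also had all 6 values above normoxia (log2 fold changes 2.88 and 1.43). Without 1 library, between 2 and 11 of the 16 passed. The fewest passed without normoxia replicate 2 or 3, and the most without normoxia replicate 1, when 6156 of all genes passed.

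Of 32 other immediate-early genes, 17 were higher and 0 lower with the mean of both days, 16 had all 6 values above normoxia, and the median log2 fold change was 1.25. The shares over all genes tested were 2.54% higher, 4.34% lower and 5.38% with all 6 values above normoxia. Nr4a2, an orphan nuclear receptor, was at 0.167, 0.331 and 0.454 CPM in normoxia and 14.0, 12.4 and 14.5 CPM at day 56. At day 28 it had 3.99 and 6.55 CPM in replicates 1 and 2 but 0.480 CPM in replicate 3, just above normoxia. Egr1, a zinc-finger factor, was at 3.25 to 10.1 CPM in normoxia and 29.6, 53.6 and 6.08 CPM at day 28, so that day 28 replicate 3 fell inside the normoxia range. Zfp36, Zfp36l1 and Zfp36l2, which encode proteins that mark AU-rich transcripts for decay, had log2 fold changes of 1.84, 0.97 and 1.69, and Csrnp1, a nuclear factor, one of 1.39. Without 1 library, between 1 and 25 of the 32 passed. The count was 1 without normoxia replicate 2 or 3 or day 56 replicate 2 or 3. It was 25 without normoxia replicate 1, when 6156 of all genes passed. Once the intron share was added to the fit, 1 passed and the median was 1.30.

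Of 9 dual-specificity phosphatases, which switch off MAP kinases, 7 were higher and 0 lower, with a median of 1.46, but only 3 had all 6 values above normoxia. Among all genes tested, 2.54% were higher, 4.34% were lower and 5.38% had all 6 values above normoxia. Dusp1 went from 61.8, 140 and 161 CPM to 309 to 625 CPM (median 374; log2 fold change 1.79, adjusted p = 0.0301). Dusp2 went from 23.1, 19.7 and 30.4 CPM to 39.2 to 175 CPM (median 109; 2.03, adjusted p = 0.0103). Dusp10 was near normoxia at day 28 and high at day 56, as given below for the days. Of 13 Kruppel-like factors, 3 were higher, among them Klf9, a target of the glucocorticoid receptor, which went from 16.6, 8.69 and 8.95 CPM to 21.8 to 69.4 CPM (median 53.5; 2.12, adjusted p = 0.0184). Without normoxia replicate 2, 0 of the 9 phosphatases and 1 of the 13 factors passed. Without normoxia replicate 1, when 6156 of all genes passed, 7 phosphatases were higher, as were 9 factors, with 1 factor lower.

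Inflammatory genes were higher in part. Of 24 NF-kB subunits and feedback genes, 7 were higher and 0 lower (median 0.42), against 2.54% higher and 4.34% lower of all genes tested. Tnfaip3 encodes A20, which ends NF-kB signalling, and was at 32.0, 59.4 and 44.6 CPM in normoxia, 456, 287 and 182 CPM at day 28 and 819, 693 and 862 CPM at day 56 (log2 fold change 3.45, adjusted p = 0.00386). Rel, an NF-kB subunit of lymphocytes, was at 13 to 17.2 CPM in normoxia and 18.8 to 82.4 CPM in Sugen-hypoxia (1.53, adjusted p = 0.0208). Of 29 cytokines and chemokines, 8 were higher and 2 lower. Tgfb1 was higher, at 35.1 to 72.5 CPM in normoxia and 90.1 to 130 CPM in Sugen-hypoxia (1.10, adjusted p = 0.0346), as was Csf1 (1.44, adjusted p = 0.0448), the growth factor of macrophages. Il18 was lower, at 3.17, 6.44 and 11.7 CPM in normoxia and 1.07 to 3.13 CPM in Sugen-hypoxia (-2.02, adjusted p = 0.0252), and so was Il16 (-1.01, adjusted p = 0.0135), a chemoattractant for CD4 cells. Il1b stood at 11.2 ± 5.87 CPM (SD, n = 3) against 25.1 ± 11.9 CPM (SD, n = 6) and did not pass (adjusted p = 0.117). Without normoxia replicate 2, 1 of the 24 NF-kB genes and 0 of the 29 cytokines passed. Without normoxia replicate 1, when 6156 of all genes passed, 12 of the NF-kB genes were higher, and of the cytokines 9 were higher and 4 lower.

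Clock and glucocorticoid-induced genes shared several members with the lists above. Per1, a clock repressor that glucocorticoids also induce, was at 37.5, 20.5 and 21.3 CPM in normoxia, 142, 98.4 and 48.9 CPM at day 28 and 363, 327 and 342 CPM at day 56 (log2 fold change 2.78, adjusted p = 0.0110). Nfil3, a repressor that acts on clock output genes, was at 9.37 to 14.0 CPM in normoxia and 18.4 to 72.5 CPM in Sugen-hypoxia (2.08, adjusted p = 0.0282). Of 17 clock genes, 5 were higher and 0 lower (median 0.48), and of 14 glucocorticoid-induced genes, 6 were higher and 0 lower (median 1.16). Of all genes tested, 2.54% were higher and 4.34% lower. The labels give no hour of blood collection. Without normoxia replicate 2, 0 genes of either list passed. Without normoxia replicate 1, when 6156 of all genes passed, 13 clock genes and 8 glucocorticoid-induced genes were higher.

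Some genes of BMP and TGF-beta signalling and of the response to low oxygen were higher, and none of the genes of inherited pulmonary hypertension passed. Of 12 genes of inherited pulmonary hypertension tested, 0 passed, and Bmpr2, the receptor most often mutated in the inherited disease, overlapped between the groups at 2.65 to 10.5 CPM in normoxia and 5.41 to 14.2 CPM in Sugen-hypoxia. Of 29 BMP and TGF-beta genes, 5 were higher and 1 lower, against 2.54% higher and 4.34% lower of all genes tested. Id3, a target of BMP signalling, was lower, at 39.0, 30.8 and 22.3 CPM in normoxia and 8.02 to 17.0 CPM in Sugen-hypoxia (log2 fold change -1.24, adjusted p = 0.0247), whereas Id1, of the same family, was higher, at 1.40 to 2.40 and 3.20 to 12.9 CPM (1.95, adjusted p = 0.0456). Smurf1, which marks BMP receptors and Smads for degradation, was higher (0.86, adjusted p = 0.0403). Of 34 genes of the hypoxia-inducible factors and their targets, 4 were higher and 1 lower (median 0.31). Hk2, the inducible hexokinase, went from 10.1 to 16.7 CPM to 25.5 to 50.5 CPM (1.29, adjusted p = 0.0331), and Vegfa from 0.258 to 0.541 CPM to 0.800 to 4.16 CPM (2.35, adjusted p = 0.0252). These counts turned on single normoxia libraries. Without normoxia replicate 2, 0 genes of the 3 lists passed. Without normoxia replicate 1, when 6156 of all genes passed, 4 genes of inherited pulmonary hypertension were higher and 0 lower, 15 BMP and TGF-beta genes were higher and 2 lower, and 11 hypoxia genes were higher and 8 lower.

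Further higher genes with all 6 values above normoxia were Cdkn1a, a cell cycle inhibitor (log2 fold change 3.37, adjusted p = 0.0162), Thbd, the endothelial and myeloid thrombomodulin (2.97, adjusted p = 0.0249), and Pmaip1, a BCL2 family member that promotes cell death (1.54, adjusted p = 0.0208). Mmp9, a gelatinase of neutrophils and monocytes, was at 2.21 to 3.05 CPM in normoxia and 3.43 to 12.9 CPM in Sugen-hypoxia (1.77, adjusted p = 0.0280). Kdm6b, a histone demethylase, was at 54.5 CPM in normoxia replicate 1, 21.4 and 25.2 CPM in the others and 60.9 to 98.7 CPM in Sugen-hypoxia (1.31, adjusted p = 0.0384). Its normoxia replicate 1 lay nearer to the Sugen-hypoxia libraries than to the other normoxia libraries. Lag3, an inhibitory receptor of T cells, was at 10.1 to 19.1 and 21.4 to 37.5 CPM (0.98, adjusted p = 0.0376).

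Among the genes lower with the mean of both days were members of the B cell and Gimap lists. Of 22 B cell markers, 2 were lower and 0 higher, and 5 had all 6 values below normoxia, with a median log2 fold change of -0.47. Over all genes tested, 4.34% were lower, 2.54% were higher and 5.29% had all 6 values below normoxia. Without normoxia replicate 2, 0 B cell markers were lower. Without normoxia replicate 1, when 6156 of all genes passed, 6 were lower, the most without any 1 library. Cd79b, a signalling chain of the B cell receptor, was at 294, 678 and 464 CPM in normoxia and 123 to 281 CPM in Sugen-hypoxia (-1.34, adjusted p = 0.0334). Tnfrsf13c, the receptor for the survival factor BAFF, was at 27.1, 30.8 and 23.4 CPM and 5.83 to 16.7 CPM (-1.34, adjusted p = 0.0135). In bulk samples, fewer cells of a type and less RNA per cell cannot be told apart. Of 6 Gimap GTPases, which support lymphocyte survival, Gimap4 and Gimap6 were lower (-0.95 and -0.87), and 0 to 4 were lower without 1 library, with 4 without normoxia replicate 1 or day 28 replicate 3 and 0 without any of the others. For Gimap4 the day 28 replicate 3 value of 179 CPM lay just below the normoxia values of 180 to 193 CPM, while the other 5 libraries had 69.9 to 105 CPM. T cell markers did not move this way as a list: 16 of 24 had a positive log2 fold change, the median was 0.20, and 1 was lower and 0 higher. Of 16 regulatory and helper T cell markers, 1 was higher and 1 lower, with a median of -0.17. Among single genes of T cells, Trat1, an adaptor of the T cell receptor, and Il2ra, a chain of the interleukin-2 receptor, were lower (-1.13 and -0.52), the latter with the opposite sign when intron reads were counted as well.

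Bbs10, a chaperonin-like protein of the Bardet-Biedl complex, was the lowest of the named genes by log2 fold change after Calhm5, at 10, 14.3 and 12.9 CPM in normoxia, 3.78, 3.99 and 5.85 CPM at day 28 and 1.79, 1.93 and 1.88 CPM at day 56 (-2.09, adjusted p = 0.00201). Emb, an adhesion protein that carries monocarboxylate transporters, was at 165, 360 and 458 CPM in normoxia and 33.2 to 142 CPM in Sugen-hypoxia (-1.92, adjusted p = 0.0249). Luc7l3 and Clk4, of RNA splicing, were lower in all 6 libraries (-1.05, adjusted p = 0.0177, and -0.82, adjusted p = 0.0356), as was Gch1, the first enzyme of tetrahydrobiopterin synthesis (-1.47, adjusted p = 0.0280). Cat, the catalase, stood at 157 to 337 CPM in normoxia, 42.1 to 92.6 CPM at day 28 and 141 to 150 CPM at day 56 (-1.39, adjusted p = 0.0346). Cat, Emb and Gch1 were lowest in the day 28 libraries with the fewest globin reads, a relation that was not itself tested. In the fit with 1 pooled mean their log2 fold changes were -1.25, -1.80 and -1.35. With the globin share as a term they were -0.75, -1.29 and -0.87, and with the intron share -0.18, -0.56 and -0.34. Bbs10 was at -1.95, -2.21 and -2.09. With the mean of both days, Cat, Emb and Gch1 did not pass with either share (edgeR's quasi-likelihood test, adjusted p of 0.245 to 0.692).

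Genes of ribosomes, proteasomes and mitochondria had negative medians, and the number of them called depended on normoxia replicate 1. The median log2 fold change was -0.75 over 65 cytosolic ribosomal proteins, with 0 called in either direction. It was -0.65 over 68 mitochondrial ribosomal proteins (8 lower, 0 higher), -0.72 over 68 nuclear genes of oxidative phosphorylation (4 lower, 0 higher) and -0.59 over 37 proteasome subunits (4 lower, 0 higher), against 4.34% lower of all genes tested. Without normoxia replicate 1, when 6156 of all genes passed, 59 of the cytosolic ribosomal, 58 of the mitochondrial ribosomal, 61 of the oxidative phosphorylation and 30 of the proteasome genes were lower, whereas without normoxia replicate 2 or 3, 0 were. These lists split the normoxia libraries: the mean log2 CPM of the cytosolic ribosomal proteins was 8.79 in normoxia replicate 1, 10.2 in each of replicates 2 and 3, and 9.12 to 9.44 in Sugen-hypoxia. Without normoxia replicate 1 the median of the cytosolic ribosomal proteins was -1.08, and it was -0.18 once the intron share entered the fit. The same covariate took the medians of the oxidative phosphorylation and proteasome lists to -0.29 and -0.35. Mrpl51 and Psmd5 are 2 members with all 6 values below normoxia (-0.78, adjusted p = 0.0331, and -0.92, adjusted p = 0.0420).

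**Figure D5:**
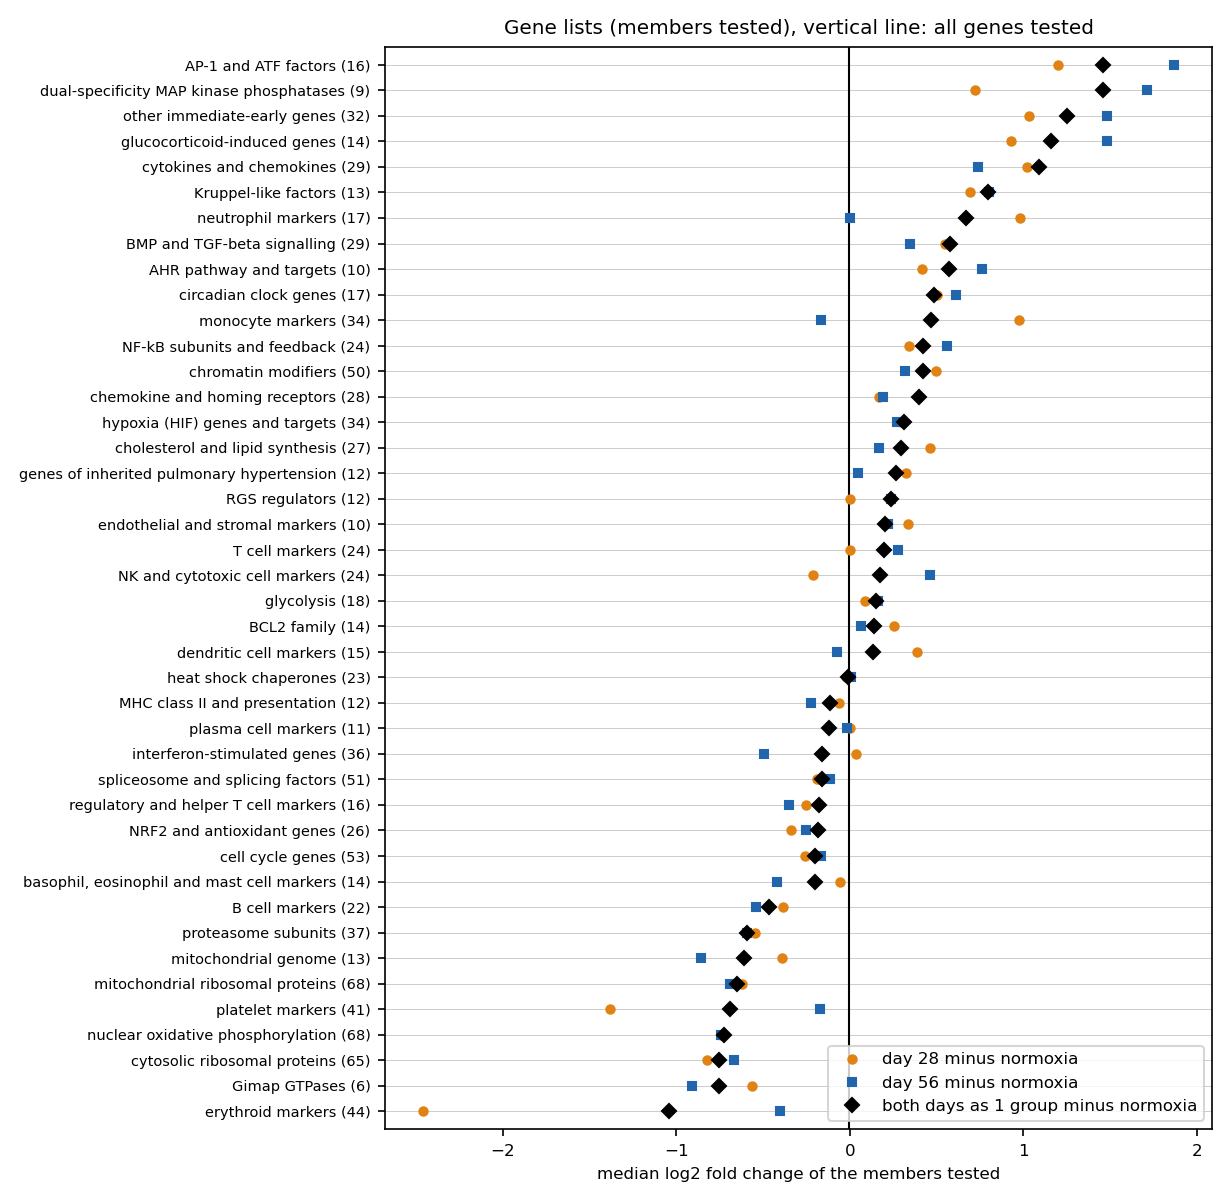
Median log2 fold change of the tested members of each gene list (number in brackets) for both days as 1 group, day 28 and day 56 against normoxia, with a vertical line at the median of all genes tested (-0.01). The days share the normoxia libraries. AP-1 and ATF factors are highest (1.46) and erythroid markers lowest (-1.04, with -2.46 at day 28 and -0.40 at day 56).

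Blood cell markers were present in all libraries and did not all move with the groups. The summed T cell markers ranged from 2560 to 3000 CPM in normoxia and 1960 to 3580 CPM in Sugen-hypoxia, and those of NK and cytotoxic cells from 958 to 1750 and 788 to 2400 CPM. B cell markers summed to 2190 to 3270 CPM in normoxia and 1190 to 2240 CPM in Sugen-hypoxia. Monocyte markers ranged from 5030 to 7430 and 4020 to 16000 CPM, the highest in day 28 replicate 2, with Cd14 at 2.43 to 10.8 and 5.26 to 65.6 CPM. Of 34 monocyte markers tested, 2 were higher and 0 lower, against 2.54% higher and 4.34% lower of all genes tested. Without normoxia replicate 1, when 6156 of all genes passed, 10 monocyte markers were higher and 4 lower. The median of the 34 was 0.47, made of 0.97 at day 28 and -0.16 at day 56. Neutrophil markers summed to 159 to 366 and 239 to 1200 CPM, and Mpo, which defines early neutrophils, stayed at or below 0.260 CPM in every library. Of 17 neutrophil markers tested, 15 had a positive log2 fold change, as did 6175 of the 12447 genes tested. Their median was 0.67, with 0.98 at day 28 and 0.00 at day 56. Of the 17, 1 was higher and 0 lower, against 2.54% and 4.34% of all genes tested. Endothelial and stromal markers summed to 26.5 to 32.4 CPM in normoxia and 34.0 to 56.0 CPM in Sugen-hypoxia, without overlap. Of the 10 tested, 0 were higher and 0 lower. Cdh5 and Col1a1, of endothelium and stroma, stayed at or below 0.336 CPM in every library. Erythroid markers summed to 118000 to 284000 CPM in normoxia and 3140 to 126000 CPM in Sugen-hypoxia, with 8 of 44 lower and 0 higher. Without day 28 replicate 3, 31 erythroid markers were lower, without normoxia replicate 1 23 were, and without any 1 of the other 7 libraries 0 were. Alas2, the first heme enzyme of red cells, was at 52.5 and 214 CPM in day 28 replicates 1 and 2 and at 1120 to 5230 CPM in the other 7 libraries. Platelet markers overlapped, at 3650 to 11100 and 3370 to 10500 CPM, with 1 of 41 lower and 30 lower without normoxia replicate 1. The part of these cells in the gene differences above was not tested beyond the fits with a share as a term. With the intron share, the medians of the erythroid, platelet and monocyte lists changed sign, from -1.04, -0.69 and 0.47 to 0.46, 0.49 and -0.08. With the globin share they were -0.30, -0.22 and -0.11. The medians of the T and B cell lists kept their sign with the intron share (0.33 and -0.77). With the globin share, 9 of the 11 pooled calls held, Calhm5 (adjusted p = 0.0712) and Dpysl5 (0.0520) being lost. With the intron share, 5 held: Ahrr (0.0112), Erp27 (0.0129), Fam111a (0.0399), Klf6 (0.0267) and Jun (0.0188).

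The pooled group was not uniform, since 68 genes differed between day 56 and day 28 (0.546% of genes tested, edgeR's quasi-likelihood test), 53 higher and 15 lower at day 56. None of the 11 pooled calls was among them. For 40 of the 68 the log2 fold changes from normoxia at the 2 days had opposite signs, whatever their size. Some of these were close to 0 at 1 of the days, such as Ifi27 at day 28 (0.02). Rasgef1b, an exchange factor for Ras proteins, was at 7.62 to 10.9 CPM in normoxia, 11 to 14.1 CPM at day 28 and 92.9, 77.2 and 77.5 CPM at day 56 (log2 difference 2.75, SE 0.19, adjusted p = 0.000761). Sh2d2a, a T cell adaptor, was at 22.9 to 30.4, 29.4 to 34.7 and 108 to 126 CPM (1.86, adjusted p = 0.00331). Dusp10 and Maff, of the lists above, were near normoxia at day 28 and higher at day 56 (1.99 and 2.09, both adjusted p = 0.0147). Dusp6, also a dual-specificity phosphatase, went the other way. It was at 45.4 to 65.7 CPM in normoxia, 89.6 to 92.5 CPM at day 28 and 31.8 to 43.7 CPM at day 56 (-1.25, adjusted p = 0.0291). Errfi1, a feedback inhibitor of EGF receptors, was above normoxia in all 6 libraries but higher at day 56, at 2.98 to 3.67 CPM in normoxia, 5.03 to 5.66 CPM at day 28 and 12.7 to 15.8 CPM at day 56 (1.38, SE 0.18, adjusted p = 0.0270). Tlr7, a sensor of single-stranded RNA, was at 34.1 to 50.6 CPM in normoxia, 47.6 to 76.7 CPM at day 28 and 12.7 to 19.0 CPM at day 56 (-1.93, adjusted p = 0.0285), and Ifi27, an interferon-stimulated gene, at 58.1 to 147, 82.8 to 163 and 5.84 to 11.3 CPM (-3.72, adjusted p = 0.0147). Without day 56 replicate 2 the count was 3, without normoxia replicate 1 it was 1002, and with the globin share as a covariate it was 0. Globin shares were 1.42% to 29.0% at day 28 and 40.5% to 44.4% at day 56, so the day and the globin share cannot be told apart.

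Promoters were also searched for the motifs of the factors named above. Among the 244 promoters of genes higher with the mean of both days, 7.38% held the AP-1 site TGANTCA on either strand, against 4.18% of all 9154 and 4.95% of the 384 promoters of lower genes. The serum response element, through which Fos and Egr1 are induced, was found in 2.87%, 1.21% and 1.56%, and the NF-kB site in 12.3%, 8.25% and 7.03%. The cAMP response element TGACGTCA was found in 3.69%, 2.85% and 2.86%, the E-box CACGTG in 10.7%, 8.02% and 7.81%, and GCGTG in 51.6%, 44.7% and 39.8%. The glucocorticoid response element was found in 0%, 0.218% and 0.26%. Median GC content of the windows was 63.2%, 60.0% and 56.8%, and the shares are descriptions that were not tested.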

How the data were processed

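The authors deposited 1 table with, per the file headers, exon reads, uniquely mapped exon reads and exon plus intron reads for each gene and library. The exon reads are raw counts that include reads mapped to several places. Some columns of unique reads as deposited hold a fraction on a broken line and were therefore entered as estimated counts, although the authors' values are whole counts on every intact line. Per the submitters' processing notes the build was rn6 and FastQC was used; the aligner is not given in the sources used here. Of 22085 lines, 8 were broken and left out, and 99 further columns of values per sample were not used.

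Genes were tested with edgeR 4.0.16 in R 4.3.3 (robust quasi-likelihood fit, TMM factors, filterByExpr by condition) with 1 mean for the 6 Sugen-hypoxia and 1 for the 3 normoxia libraries, and Benjamini-Hochberg adjustment at 0.05 over 12447 genes. Standard errors (SE) were derived from the F statistic. The difference between the days was tested in a fit with 3 means. No pair of replicates agreed within sampling noise. Floors of 3 reads cover counting error only. Alternatives were DESeq2 1.42.0, limma 3.58.1 voom with quality weights for libraries, other factors and filters, and other read columns. Covariates, a replicate block and leaving out each library were further alternatives. The test scripts were tested on simulated data.

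The comparison, the 42 gene lists and the rules were chosen with earlier results of these data known. Named genes were those called in the pooled fit with all 6 values outside normoxia, at least 5 CPM in the higher group and at least 80% unique reads (the 15 largest each way, 6 more by p, 3 per list and direction), plus Ahr, Arnt, Ahrr, Tiparp and Nqo1. Because that gave few genes, the 12 largest each way and 2 per list and direction from the test of the mean of both days were added after the values were seen. Defining markers were fixed with the lists, and other genes singled out were chosen after their values were seen. Some genes are not reported here.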

Additional observations from a re-analysis of the deposited data

Results flagged for a closer look

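Tob1, Gimap4 and Gimap6 each had 1 Sugen-hypoxia library far from the other 5. The gap to the nearest library, divided by the range of the 6, was 0.648 for Tob1, 0.681 for Gimap4 and 0.668 for Gimap6, above Dixon's critical value for 6 samples. Day 28 replicate 3 was the library concerned in all 3 genes and lay towards normoxia, with 18.9 CPM of Tob1, 179 CPM of Gimap4 and 163 CPM of Gimap6. Chance alone puts about 1 in 20 groups past this value, and the 6 values come from 2 days. Errfi1 differed between the days within the pooled group, with a log2 difference of 1.38, day 56 above day 28 (SE 0.18; edgeR's quasi-likelihood test, adjusted p = 0.0270).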

How the results depend on the processing

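The 11 pooled calls became 1984 with DESeq2, 6697 with limma voom with quality weights, 25 without a filter and 261 with exon plus intron reads. They became 856 with the mean of both days, 2 with the replicate block, 6 with the intron share and 17 with the globin share as a covariate. Without 1 library they became 2 to 4818. Added later, leaving out normoxia replicate 1 and day 28 replicate 3 together gave 4888 and day 56 alone with the column run as a term 787. RLE and upper-quartile factors, a filter of 1 CPM in 6 libraries, unique reads and leaving out globin genes gave 8 to 12. Jun missed the threshold with RLE factors (adjusted p = 0.0515), the stricter filter (0.0516) and unique reads (0.0519), Calhm5 with RLE factors (0.0519) and Dpysl5 with unique reads (0.0623), where Calhm5 did not pass the filter. The 68 genes that differed between the days became 1057 with DESeq2, 2135 with limma voom with quality weights and 186 with the replicate block. They became 0 with the globin share as a covariate and 3 to 1002 without 1 library. The 856 became 12 with either covariate and 17 to 6156 without 1 library. The globin share difference was -22.3 percentage points, and -25.7 to -17.1 without 1 library. The erythroid marker list is a different set with a smaller share of reads (14.1% in normoxia). Its share differed by -6.95 percentage points (exact permutation p = 0.0238). The intron share difference was 8.35, and 6.61 to 11.2 without 1 library. The cause of these changes was not tested. Same-numbered replicates did not deviate together (correlations of -0.146 to 0.167), and not every library correlated best with its own number, so the replicate block pairs samples by number alone. Of the results for single genes, 2693 kept direction and side of the threshold, 511 passed newly and 75 no longer passed. Only a result that had passed could be lost, and in the pooled fit 11 genes had, so the 75 fall on few genes. Jun passed in 14 of 24 alternatives and Rhob in 16 of 24, whereas Ahrr and Erp27 passed in 24 of 24. Among the pooled values of named genes, Il2ra alone changed sign, with exon plus intron reads. Depth limits the lowest genes, such as Cyp1b1, at or under the CPM of 3 reads in 8 of 9 libraries.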
